A study of Mus musculus with 8 samples.

Results

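The sterol and fatty acid synthesis genes described here are 31 genes of lipid synthesis and its control by SREBP, the sterol regulatory element-binding proteins. They were found by gene symbol in the deposited count table, where all 31 were present among 26146 genes. The sterol arm has 23 members, which are 18 enzymes and 5 genes of regulation and sterol transfer, and the fatty acid arm has 8. All 23 sterol members and 7 of the 8 fatty acid members passed the filter on low counts, which left 13439 genes in all for the test. Scd1 was the member that did not pass.

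RNA came from Lin-Sca1+Kit+ (LSK) cells, the stem cell and early progenitor fraction of bone marrow, sorted from 8 mice with 1 library per mouse. The 4 Jmjd6 KO mice had a floxed Jmjd6 targeted in haematopoietic lineages through a cell type specific Cre, which the labels do not name, and 4 mice were labelled wild type. The sources used here do not say whether the wild type mice carried the Cre or the floxed allele, or give strain and age. Jmjd6 encodes an oxygenase of the JmjC family that hydroxylates lysines in proteins that include splicing factors.

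SREBP proteins are made as membrane proteins of the endoplasmic reticulum. When sterols are scarce, SCAP escorts them to the Golgi, where proteases release the part that enters the nucleus and raises transcription of these genes; when sterols are plentiful, INSIG proteins hold SCAP back. SREBP-2, from Srebf2, is known mainly for the cholesterol pathway and SREBP-1, from Srebf1, mainly for fatty acid synthesis. Dividing blood cells need both products for new membrane, and intermediates of the sterol pathway also supply the lipid anchors of small GTPases and the side chain of ubiquinone.

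SREBP binds promoters together with NF-Y and Sp1, and the upstream sequences of 5 members are shown because they hold the binding letters by which the set is usually described. RefSeq (GRCm38.p6, the assembly that mm10 names) gave a window from 250 bases before to 50 bases after the start site for 24 of the 31 members. Capitals mark TCACNCCAC (a sterol regulatory element), CACGTG (an E-box), CCAAT (an NF-Y box) and GGGCGG (a GC box), searched on both strands, so that an NF-Y box on the other strand reads ATTGG. The stretches are chr13:119690101-119690350 (plus strand) for Hmgcs1, chr5:28071162-28071362 (plus) for Insig1, chrX:8193513-8193762 (minus) for Ebp, chr15:82147019-82147180 (plus) for Srebf2 and chr11:120824548-120824797 (minus) for Fasn, each 5′ to 3′ on the strand of the gene and stopping before any exon of the GENCODE M21 annotation.
Hmgcs1: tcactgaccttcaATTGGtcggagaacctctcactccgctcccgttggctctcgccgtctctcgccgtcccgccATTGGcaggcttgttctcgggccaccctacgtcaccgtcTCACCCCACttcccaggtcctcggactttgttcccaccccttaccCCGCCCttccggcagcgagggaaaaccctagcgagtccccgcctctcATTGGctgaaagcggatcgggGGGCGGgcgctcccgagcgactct
Insig1: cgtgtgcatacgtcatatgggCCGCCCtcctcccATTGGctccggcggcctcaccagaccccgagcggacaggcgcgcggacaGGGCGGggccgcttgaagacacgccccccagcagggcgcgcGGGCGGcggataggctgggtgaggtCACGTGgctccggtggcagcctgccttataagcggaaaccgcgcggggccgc
Ebp: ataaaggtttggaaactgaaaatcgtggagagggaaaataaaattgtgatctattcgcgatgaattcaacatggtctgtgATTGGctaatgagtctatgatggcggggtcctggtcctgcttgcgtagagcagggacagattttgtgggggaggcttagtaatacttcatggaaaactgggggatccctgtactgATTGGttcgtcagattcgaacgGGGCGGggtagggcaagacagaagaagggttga
Srebf2: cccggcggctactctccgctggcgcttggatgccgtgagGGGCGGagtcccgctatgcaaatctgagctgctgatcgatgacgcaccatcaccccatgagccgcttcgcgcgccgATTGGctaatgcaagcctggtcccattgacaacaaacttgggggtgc
Fasn: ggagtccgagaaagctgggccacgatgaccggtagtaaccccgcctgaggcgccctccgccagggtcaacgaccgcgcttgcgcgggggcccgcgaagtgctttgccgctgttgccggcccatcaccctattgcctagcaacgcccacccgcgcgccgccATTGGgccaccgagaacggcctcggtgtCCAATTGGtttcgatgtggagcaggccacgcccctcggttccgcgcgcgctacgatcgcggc

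In the Hmgcs1 stretch the sterol regulatory element lay 137 bases before the start site, between NF-Y boxes and GC boxes. Hmgcs1 was the 1 of 24 members whose window held TCACNCCAC (4.2%), which 1.44% of the windows of all 27025 genes held. NF-Y boxes were in 19 of the 24 (79.2%), against 41.1% of all genes and 43.0% of the genes tested here that had a window. By arm, they were in 17 of 19 sterol members and 2 of 5 fatty acid members. GC boxes were in 20 of the 24 (83.3%), against 38.2% of all genes and 67.0% of tested genes. By arm, they were in 18 of 19 sterol members and 2 of 5 fatty acid members. The E-box was in 5 members, Insig1, Sc5d, Dhcr7, Hsd17b7 and Scap (20.8%, against 8.09% and 11.8%). All 5 were among the 19 sterol members with a window. In the Fasn stretch an NF-Y box on each strand overlap in CCAATTGG. These are matches of letters, and binding was not measured.

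Total counts ranged from 9964528 to 13516922 in Jmjd6 KO libraries and from 9344779 to 15079960 in wild type libraries. The targeted gene stood at 28.7, 28.1, 30.7 and 27.5 CPM in the KO libraries, against 52.5, 63.7, 54.6 and 63.7 CPM in the wild type libraries, where CPM is counts per 1000000 of the TMM-adjusted library size (log2 fold change -1.03, adjusted p = 0.0381 by edgeR). The KO level was thus 0.49 of wild type and not near 0, and counts per gene cannot show which exons were lost. The LSK markers Kit, Ly6a, Cd34 and Flt3 were present in all 8 libraries, and the T cell genes Cd3e, Cd3g and Cd3d were at or near 0. KO replicate 3 and wild type replicate 4 had no Y-linked counts and high Xist, so each genotype held 1 such library. KO replicate 3 also stood apart across all genes, holding the highest value of the 8 libraries for 24.5% of tested genes and the lowest for 27.8%. Wild type replicate 1 had the highest erythroid marker levels. It was also highest for the granule genes Elane, Mpo, Prtn3, Ctsg, S100a8 and S100a9, but not for Camp, Ltf and Ngp.

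In wild type LSK cells the pathway was expressed along its whole length, with wide differences between steps. Levels of different genes are compared here only as CPM per kilobase of exon, with exon lengths from GENCODE M21, since the sources used here name no annotation for the counting. The highest were Scd2, a stearoyl-CoA desaturase, at 36.9 ± 6.81 in KO and 47.1 ± 10.3 in wild type, and Acly, which makes cytosolic acetyl-CoA from citrate, at 40.2 ± 4.62 in KO and 43.1 ± 1.72 in wild type (CPM per kilobase, mean ± SD, n = 4 per group). The wild type ranges of these 2 genes overlapped, from 32.2 to 55.3 and from 41.7 to 45.5 CPM per kilobase. Srebf2 and Ebp followed in wild type at 24.3 ± 5.44 and 24.2 ± 1.32 CPM per kilobase. Srebf2 was above Srebf1 in both groups, at 19.4 against 6.97 CPM per kilobase in KO and 24.3 against 9.55 CPM per kilobase in wild type. The lowest tested members in wild type were Lss, Acaca, Hsd17b7 and Tm7sf2, with 1.82 CPM per kilobase in Lss and 0.993 CPM per kilobase in Tm7sf2. With the length of the longest transcript in place of all exons, the same 4 genes stayed lowest and Acly came before Scd2 (51.4 and 47.2 CPM per kilobase in wild type).

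**Figure D1:**
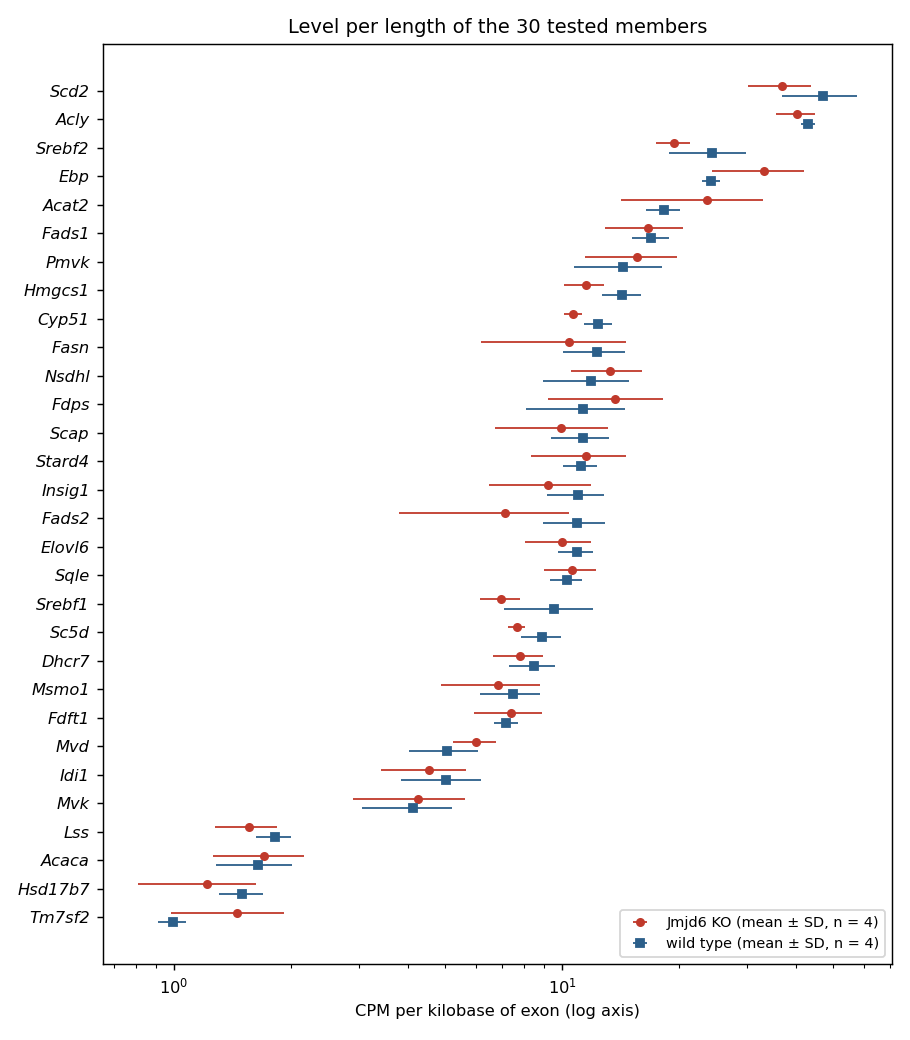
Level of the 30 tested members in CPM per kilobase of exon on a log axis, Jmjd6 KO (circles) and wild type (squares), mean ± SD over 4 libraries each, ordered by the wild type mean. Scd2 and Acly stand at the top of both groups and Tm7sf2 is at the bottom in wild type, at 0.993.

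Nearly all stearoyl-CoA desaturase counts were from Scd2 and few from Scd1. Scd1, the stearoyl-CoA desaturase known from liver and fat, had 0, 1, 29 and 3 counts in KO replicates 1 to 4 and 21, 2, 15 and 10 counts in wild type replicates 1 to 4. Scd2 had 2506, 2158, 1914 and 2821 counts in the KO libraries and 2734, 4015, 2831 and 2790 counts in the wild type libraries. Scd1 thus made up at most 1.49% of the counts of both genes in KO, in replicate 3, and at most 0.762% in wild type, in replicate 1. The genes are close paralogues on chromosome 19, and the sources used here do not say how reads matching both were counted.

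Set against wild type, 0 of the 30 tested members had an edgeR adjusted p under 0.05 (quasi-likelihood test), where 0.0595% of all tested genes passed. The smallest adjusted p among the members was 0.792, and 0 members passed by DESeq2 (0.396% of all genes passed) or limma voom (0.231%). At an unadjusted p under 0.05 by edgeR there were 2 members, against 6.06% of all genes. Ebp was the 1 member higher in KO, where 2.78% of all genes were, and Srebf1 the 1 member lower, where 3.28% were. The groups did not overlap in 1 member, Ebp, against 4.19% of all genes; 2.08% of all genes had every KO library higher and 2.11% every KO library lower. In 28 of 30 members the 95% interval of the log2 fold change lay within -1 and 1, so a change of 2-fold or more in the mean was outside the interval, as in 73.6% of all genes. The exceptions were Tm7sf2 (-0.10 to 1.20) and Fads2 (-1.32 to 0.09).

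The arms had similar medians when the sterol regulators were counted in. The sterol arm's median log2 fold change was -0.12, with 11 members above 0 and 12 below, and the fatty acid arm's was -0.13, with 1 above and 6 below. The 18 sterol enzymes alone had a median of 0.04, with 10 above 0 and 8 below. The 5 genes of regulation and sterol transfer had a median of -0.26. Over all tested genes the median was 0.00 and 50.4% lay below 0. Summed over all 31 members the level was 1731, 1748, 1603 and 1764 CPM in KO, against 1849, 1953, 1822 and 1859 CPM in wild type. The groups did not overlap in this sum, with KO lower by 159 CPM in the mean, and they did not overlap on the plain library total either. They did overlap in the sum of each arm. The sterol arm summed to 922 to 1068 CPM in KO and 969 to 1116 CPM in wild type. The fatty acid arm summed to 570.0 to 827 CPM in KO and 743 to 877 CPM in wild type. The sum over all 31 members gives most weight to genes with many counts. Scd2, Srebf2, Fasn and Acly had the most negative differences in mean, at -55.6, -35.7, -21.2 and -15.2 CPM, KO minus wild type. Without these 4 genes the sums overlapped (994 to 1112 CPM in KO and 1022 to 1122 CPM in wild type). Since they had the largest drops, leaving them out could only shrink the difference. In bulk samples, fewer cells of a type and less RNA per cell cannot be told apart.

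**Figure D2:**
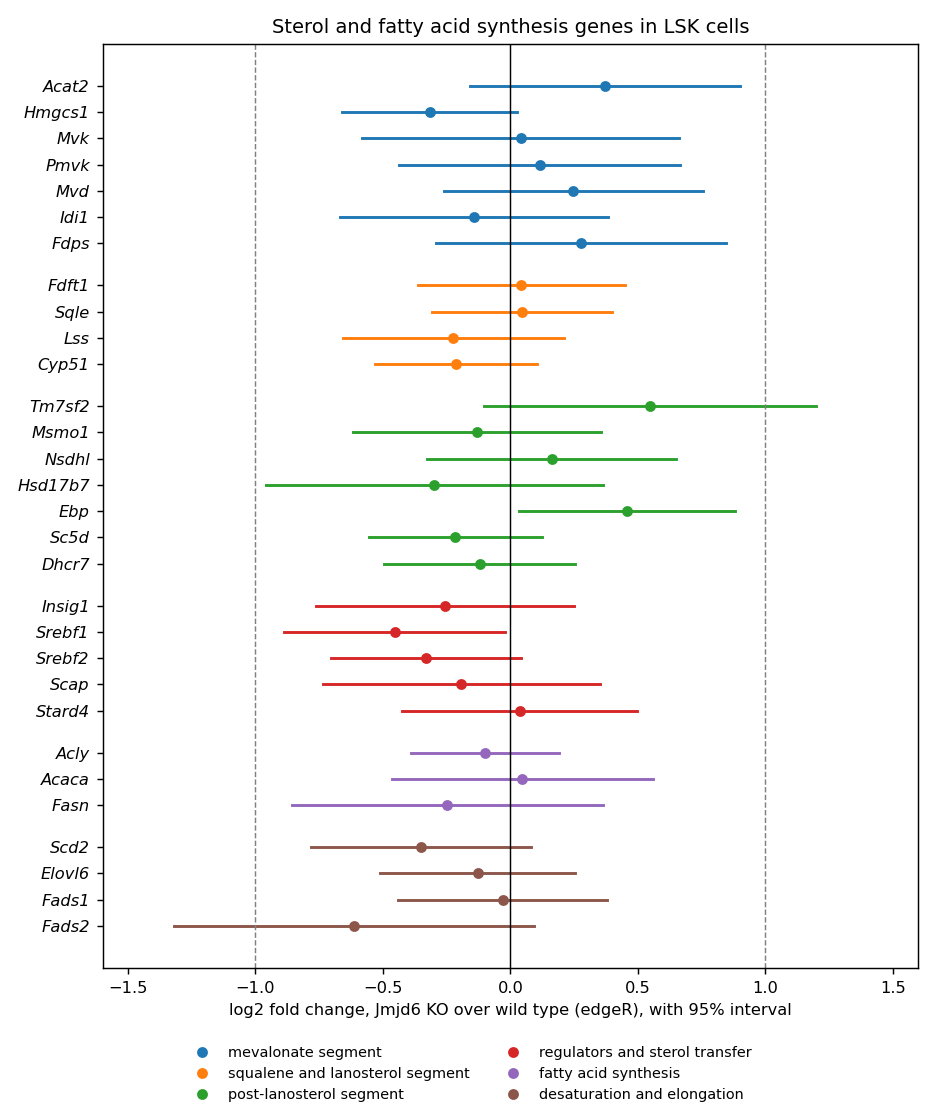
Log2 fold change of each tested member, Jmjd6 KO over wild type, with its 95% interval from edgeR, grouped by role; dashed lines mark -1 and 1. The intervals of 28 of 30 members lie within the dashed lines, and those of Ebp and Srebf1 do not include 0.

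The mevalonate segment, from acetyl-CoA to farnesyl pyrophosphate, held members on both sides of 0. Hmgcs1, the synthase that makes HMG-CoA, stood at 50.9, 61.8, 49.9 and 47.9 CPM in KO replicates 1 to 4, against 61.5, 73.8, 69.7 and 57.0 CPM in wild type replicates 1 to 4. KO replicates 1, 3 and 4 lay below every wild type library, and KO replicate 2 lay inside the wild type range. Its log2 fold change was -0.32 (95% interval -0.66 to 0.03, adjusted p = 0.819 by edgeR), which stayed between -0.38 and -0.24 under all 17 alternatives. Acat2, the cytosolic acetoacetyl-CoA thiolase at the head of the pathway, stood at 48.9, 40.5, 94.5 and 56.2 CPM in KO, against 46.6, 52.9, 42.3 and 43.9 CPM in wild type. KO replicate 3 was far above the other 7 libraries, whose groups overlapped; the log2 fold change was 0.37 (adjusted p = 0.832 by edgeR), and 0.06 without that library. Fdps, the farnesyl pyrophosphate synthase, was likewise highest in KO replicate 3, at 83.2 CPM, with 0.28 over all libraries and 0.05 without it.

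The other members of this segment were Mvk and Pmvk, the kinases that phosphorylate mevalonate, Mvd, the decarboxylase that follows them, and Idi1, the isomerase of isopentenyl pyrophosphate. Their log2 fold changes lay between -0.14 (Idi1) and 0.25 (Mvd), and their groups overlapped. Without KO replicate 3, Idi1 gave -0.33 and Mvk 0.19, against 0.04 for Mvk over all libraries. Over the 7 members, 5 were above 0 and 2 below, with a median of 0.11. Fdps shares 1124 exon bases with the same-strand gene Gm43738, so its reads may not have been told apart from that gene's.

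In the squalene and lanosterol segment the log2 fold changes lay between -0.22 and 0.04. Sqle, the squalene epoxidase that is a control point of the pathway, stood at 50.1, 53.6, 70.4 and 60.6 CPM in KO, against 51.0, 59.4, 53.8 and 63.2 CPM in wild type. The groups overlapped almost fully, with a log2 fold change of 0.04 (95% interval -0.31 to 0.40, adjusted p = 0.964 by edgeR). Cyp51, the lanosterol demethylase, stood at 45.8, 50.3, 48.4 and 44.5 CPM in KO, against 58.5, 57.8, 54.3 and 48.5 CPM in wild type. The 3 highest values were wild type, but wild type replicate 4 lay inside the KO range; the log2 fold change was -0.21 (95% interval -0.53 to 0.10, adjusted p = 0.833 by edgeR). Fdft1, squalene synthase, gave 0.04 and Lss, lanosterol synthase, gave -0.22. Fdft1 shares 774 exon bases with Ctsb on the opposite strand, and the sources used here do not say whether counting used strand.

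After lanosterol, Ebp was the member whose groups did not overlap. Ebp encodes the sterol isomerase that moves the double bond of the sterol ring, and stood at 58.6, 59.4, 96.9 and 92.1 CPM in KO, against 54.3, 58.5, 52.4 and 58.5 CPM in wild type. KO replicates 3 and 4 were well above all wild type libraries, while KO replicates 1 and 2 exceeded the highest wild type library by less than 1 CPM. Ebp gave a log2 fold change of 0.46 (SE 0.19, 95% interval 0.03 to 0.88, unadjusted p = 0.0363 and adjusted p = 0.792 by edgeR). It ran from 0.20 by limma voom to 0.59 without KO replicate 1, was 0.33 without KO replicate 3, and remained above 0 under all 17 alternatives. Ebp and Nsdhl, a sterol dehydrogenase that gave 0.16, lie on the X chromosome, and the 2 libraries without Y-linked counts are 1 per genotype; among the 6 others Ebp gave 0.35. Nsdhl rested on single libraries, with 0.02 without KO replicate 3 and 0.01 without wild type replicate 2.

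Tm7sf2, a sterol reductase, the least abundant tested member in wild type per kilobase, stood at 5.19, 6.79, 9.15 and 4.49 CPM in KO, against 3.86, 4.66, 4.62 and 4.35 CPM in wild type. The groups overlapped through KO replicate 4. A log2 fold change of 0.55 was the largest of the set upward, with an SE of 0.30 (adjusted p = 0.832 by edgeR), and it was 0.32 without KO replicate 3. Tm7sf2 shares 532 exon bases with Vps51 on the same strand. Dhcr7, the reductase that ends this branch of cholesterol synthesis, stood at 38.0, 48.9, 41.7 and 52.4 CPM in KO, against 41.0, 55.1, 46.5 and 54.2 CPM in wild type, with overlapping groups and a log2 fold change of -0.12 (95% interval -0.50 to 0.25). Msmo1, the sterol methyl oxidase, Sc5d, the lathosterol desaturase, and Hsd17b7, a ketoreductase, gave -0.13, -0.22 and -0.30 with overlapping groups. Hsd17b7 gave -0.47 without KO replicate 3 and -0.09 without KO replicate 4. Msmo1 gave -0.30 without KO replicate 3 and -0.41 by limma voom (unadjusted p = 0.0275, adjusted p = 0.429 by limma), which gave KO replicate 3 a weight of 0.21 against 2.03, 2.93 and 0.51 for the other KO libraries.

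Of the regulators, 4 of 5 lay below 0 in KO, with a median of -0.26. Srebf1 (chromosome 11, 60199089 to 60222581, minus strand, mm10) stood at 37.4, 36.7, 36.8 and 46.2 CPM in KO, against 57.1, 45.2, 41.1 and 71.8 CPM in wild type. KO replicates 1 to 3 lay below every wild type library, and KO replicate 4 lay above wild type replicates 2 and 3. Srebf1 gave a log2 fold change of -0.45 (SE 0.20, 95% interval -0.89 to -0.02, unadjusted p = 0.0417 and adjusted p = 0.811 by edgeR). It was -0.28 without wild type replicate 4, the library with the highest value, and -0.25 in the 6 libraries that had Y-linked counts. The table counts reads per gene, so the Srebf1 transcripts known as 1a and 1c were not told apart.

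Srebf2 (chromosome 15, 82147181 to 82205379, plus strand, mm10) stood at 149, 143, 118 and 146 CPM in KO, against 136, 174, 161 and 228 CPM in wild type. Wild type replicate 1 lay inside the KO range and wild type replicate 4 was the highest of all 8. Srebf2 gave a log2 fold change of -0.33 (95% interval -0.70 to 0.04, adjusted p = 0.832 by edgeR), and gave -0.17 when wild type replicate 4 was left out and -0.11 in the 6 libraries that had Y-linked counts. Scap, the escort of SREBP, stood at 88.3, 80.8, 38.3 and 88.3 CPM in KO, against 66.1, 100.4, 89.0 and 82.2 CPM in wild type. The low value of KO replicate 3 set its log2 fold change, which was -0.19 with that library and 0.02 without it.

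Insig1, both a brake on SREBP release and itself an SREBP target, stood at 24.1, 19.0, 37.7 and 32.9 CPM in KO, against 27.7, 39.2, 30.6 and 38.2 CPM in wild type. KO replicates 1 and 2 lay below every wild type library and KO replicates 3 and 4 lay inside their range. Insig1 gave a log2 fold change of -0.26 (adjusted p = 0.853 by edgeR) over all libraries, -0.42 without KO replicate 3, -0.08 without KO replicate 2 and -0.54 by limma voom (unadjusted p = 0.0133, adjusted p = 0.351 by limma). By limma voom 4 of 30 members had an unadjusted p under 0.05, Insig1, Msmo1, Srebf1 and Fads2, all lower in KO, where 9.96% of all genes had one. Stard4, a carrier of cholesterol between membranes, gave 0.04, with KO replicate 3 lowest at 38.7 CPM.

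**Figure D3:**
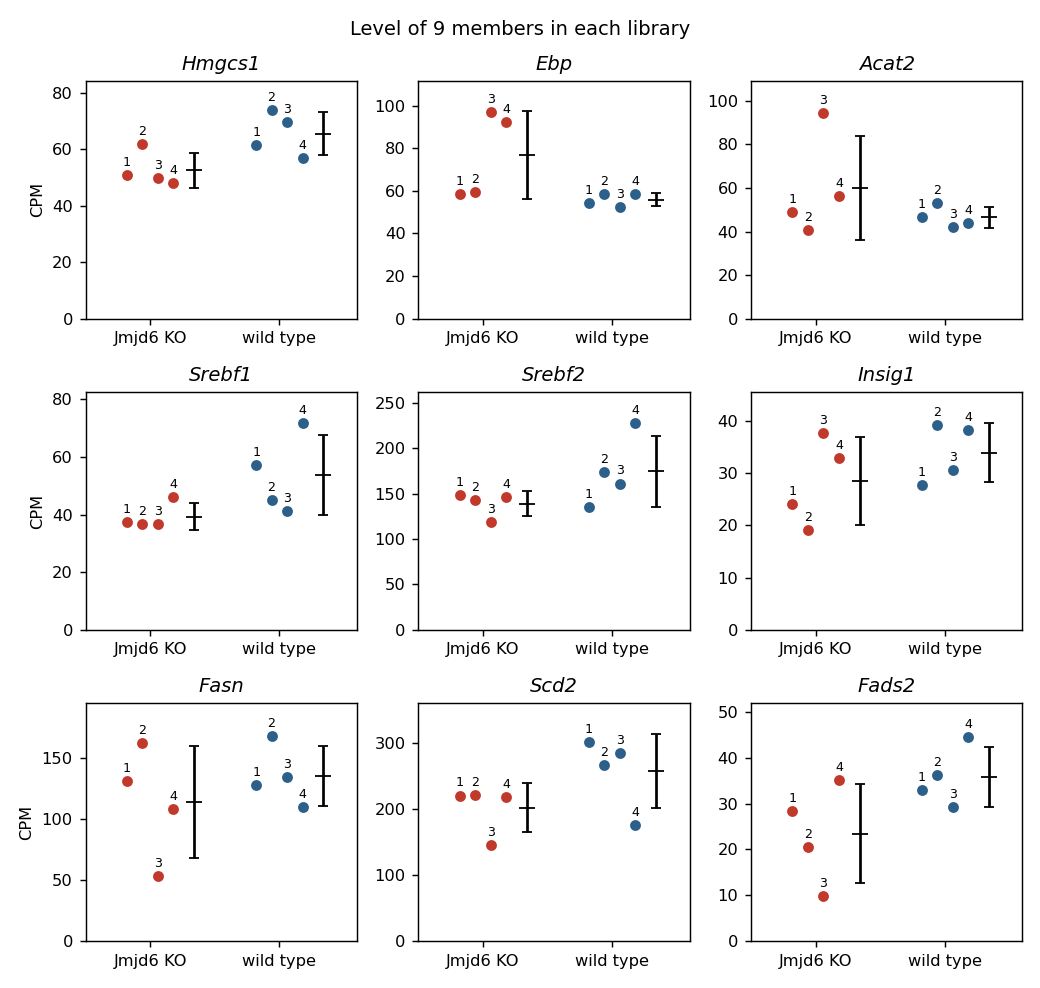
CPM of 9 members in each library, with Jmjd6 KO on the left and wild type on the right of each panel; numbers are replicate numbers and bars are mean ± SD (n = 4). Ebp is the panel without overlap, and KO replicate 3 is the lowest point in Fasn, Scd2 and Fads2 and the highest in Acat2.

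In the fatty acid arm, the genes of fatty acid synthesis proper did not differ beyond the spread between libraries. Acly stood at 236, 223, 212 and 179 CPM in KO, against 228, 222, 220.3 and 240.4 CPM in wild type. KO replicate 4 was lowest and the other KO libraries lay near the wild type ones, with a log2 fold change of -0.10 and the narrowest 95% interval of the set, from -0.39 to 0.19 (adjusted p = 0.895 by edgeR). Acaca, the acetyl-CoA carboxylase that commits acetyl units to fatty acids, stood at 37.7, 31.6, 28.0 and 19.3 CPM in KO, against 37.5, 24.3, 26.4 and 24.7 CPM in wild type. Both groups spanned a similar range, with a log2 fold change of 0.05.

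Fasn, the fatty acid synthase itself, stood at 131, 163, 53.1 and 108 CPM in KO, against 128, 168, 135 and 109.5 CPM in wild type. KO replicate 3 was far below the other 7 libraries, and the other 3 KO libraries spanned nearly the wild type range. Fasn gave a log2 fold change of -0.25 (95% interval -0.86 to 0.36, adjusted p = 0.883 by edgeR) over all libraries and -0.01 without KO replicate 3.

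All 4 tested genes of desaturation and elongation lay below 0, with a median of -0.24. Scd2 stood at 220.5, 222, 146 and 219 CPM in KO, against 302, 267, 284 and 176 CPM in wild type. All KO libraries lay below wild type replicates 1 to 3, and wild type replicate 4 lay among the KO libraries. Scd2 gave a log2 fold change of -0.35 (95% interval -0.78 to 0.08, adjusted p = 0.832 by edgeR). Leaving out wild type replicate 4 gave -0.50, leaving out KO replicate 3 gave -0.22, and leaving out both gave -0.37 (adjusted p = 0.797 by edgeR).

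Fads2, the Δ6 desaturase of polyunsaturated fatty acid synthesis, had the largest difference downward. It stood at 28.3, 20.6, 9.76 and 35.1 CPM in KO, against 32.9, 36.4, 29.3 and 44.6 CPM in wild type. KO replicates 1 to 3 lay below every wild type library and KO replicate 4 lay inside their range. The log2 fold change was -0.61 (SE 0.32, 95% interval -1.32 to 0.09, adjusted p = 0.832 by edgeR), -0.35 without KO replicate 3, -0.88 without KO replicate 4 and -0.23 in the 6 libraries that had Y-linked counts.

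Fads1, the Δ5 desaturase encoded beside Fads2 on chromosome 19, stood at 88.7, 90.2, 52.9 and 89.0 CPM in KO, against 72.3, 92.6, 77.9 and 84.6 CPM in wild type. Apart from KO replicate 3, the libraries of both groups overlapped, with a log2 fold change of -0.03 over all libraries and 0.12 without that one. Elovl6, the elongase that turns palmitate into stearate, stood at 66.9, 76.8, 66.0 and 47.0 CPM in KO, against 73.0, 66.7, 78.6 and 62.3 CPM in wild type. The groups overlapped, with KO replicate 4 lowest, and the log2 fold change was -0.13 (95% interval -0.51 to 0.25).

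KO replicate 3 stood low in the mean of the fatty acid arm and not in that of the sterol arm, with members of each arm differing. The mean log2 CPM of the 7 tested fatty acid members was 6.47, 6.44, 5.79 and 6.21 in KO replicates 1 to 4, against 6.53, 6.52, 6.46 and 6.38 in wild type replicates 1 to 4. That of the 23 sterol members was 4.93, 4.93, 5.13 and 5.10 in KO, against 5.05, 5.12, 4.97 and 5.12 in wild type. KO replicate 3 thus had the lowest mean in the fatty acid arm. In the sterol arm its mean was highest by only 0.01, and by summed CPM it stood at 1033, below KO replicate 4 at 1068 and wild type replicates 2 and 4 at 1076 and 1116. Set against the mean of the other 3 KO libraries on the log2 scale, 4 of 7 fatty acid members lay more than 0.5 lower in KO replicate 3 and 0 lay more than 0.5 higher, where 25.4% and 20.4% of all tested genes did. Of the 23 sterol members 3 lay more than 0.5 lower, Scap, Stard4 and Mvk, and 9 lay more than 0.5 higher, led by Acat2 at 0.97, Fdps at 0.78 and Tm7sf2 at 0.74. The largest drops were Fads2 at -1.47, Fasn at -1.31 and Scap at -1.16. Acly, Acaca and Elovl6 differed little, at 0.01, -0.02 and 0.08. Within the sterol arm, the mean log2 CPM of the regulators was lowest of the libraries in KO replicate 3, at 5.58. The means of the mevalonate and post-lanosterol segments were highest there, at 4.91 and 4.99.

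The sterol members that were lower in KO replicate 3 had a higher median GC content than their arm, with exceptions. Median GC content of the longest transcript was 56.3% in the 3 lower sterol members, 48.2% in the 9 higher ones and 49.6% in the arm. In the 4 lower fatty acid members it was 53.3%, near the 52.2% of that arm. Single members differed. Stard4, at -0.90 against the other KO libraries, had 43.9%, and Mvd, at 0.04, had 59.0%. Over all tested genes the median was 53.3% in those more than 0.5 lower in that library, 47.8% in those more than 0.5 higher and 49.6% in all. The part of base composition in the values of this library was not tested.

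**Figure D4:**
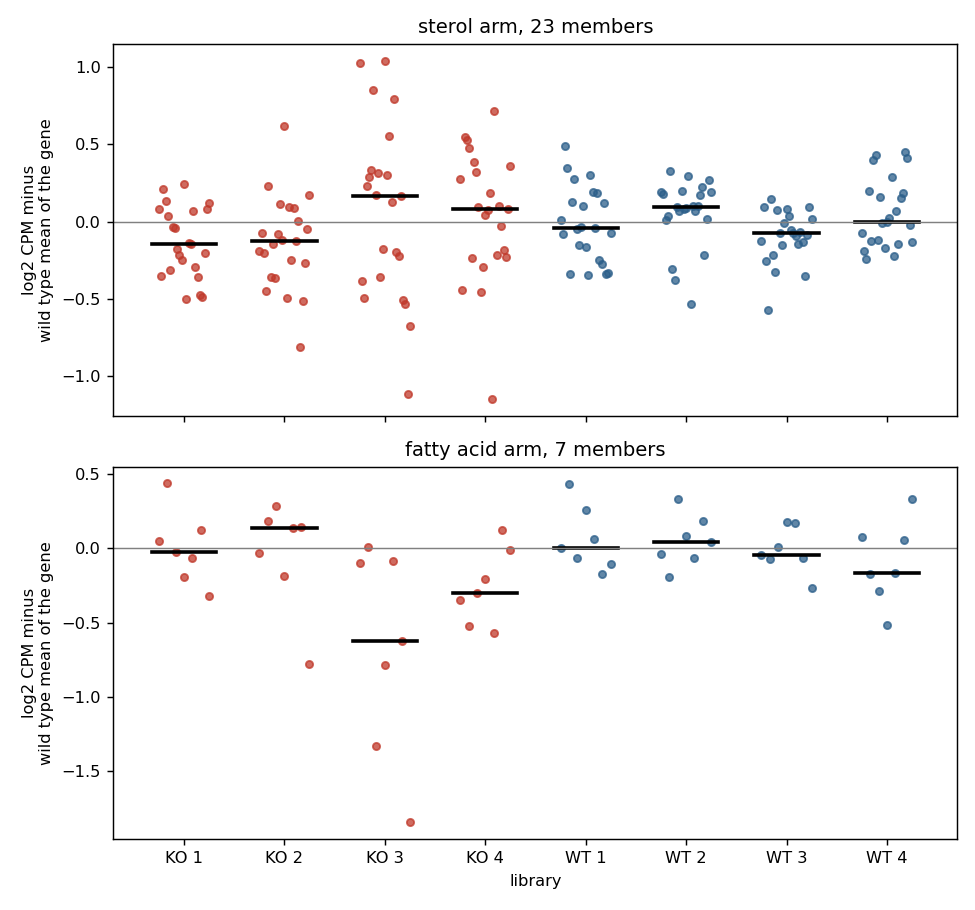
Log2 CPM of each tested member minus its wild type mean, by library, sterol arm above and fatty acid arm below; red points are Jmjd6 KO, blue points wild type, and bars are medians over members. KO replicate 3 has the widest spread and the lowest mean of the fatty acid arm, with a log2 CPM of 5.79.

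Other genes of lipid metabolism, from lists chosen with earlier results of these data known, had a smallest edgeR adjusted p of 0.762, and 3 of their 75 tested genes had an unadjusted p under 0.05 (6.06% of all genes). Of 12 other genes of SREBP processing and sterol sensing, 6 lay above 0 and 6 below (median -0.03). In 1 of the 12 every KO library was higher and in 1 every KO library was lower, where 2.08% and 2.11% of all genes were. The higher one was Prmt5, an arginine methyltransferase, at 167 ± 4.23 CPM in KO and 147 ± 13.5 CPM in wild type (mean ± SD, n = 4 per group). Its log2 fold change was 0.18 (adjusted p = 0.833 by edgeR). The groups barely separated, with KO replicate 2 and wild type replicate 2 both at about 161 CPM. Of 12 isoprenoid branch genes 8 lay above 0 (median 0.05), with values between -0.33 for Nus1 and 0.16 for Fnta.

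Among 11 tested genes of sterol export, esterification and LXR, the oxysterol receptors, the median was 0.00. Abca1, the exporter of cellular cholesterol, stood at 25.2 ± 5.38 CPM in KO and 37.2 ± 7.96 CPM in wild type (log2 fold change -0.56, unadjusted p = 0.0284 and adjusted p = 0.772 by edgeR), and Nr1h3, the gene of LXRα, gave -0.59 at low level. Npc2, which carries cholesterol in lysosomes, gave 0.31. Of 21 other lipogenic genes 13 lay below 0 (median -0.06), with Mlxip, Lpin1, Pgd and Mcat at -0.40, -0.25, -0.23 and 0.29.

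Genes of fatty acid oxidation lay on the other side of 0 from the fatty acid synthesis arm. Of 19, 17 were above 0 and 2 below, with a median of 0.17, against 1 above and 6 below in the fatty acid arm. Etfb, a subunit of the flavoprotein that takes electrons from fatty acid oxidation, stood at 258, 273, 445 and 383 CPM in KO, against 241, 219, 198 and 274 CPM in wild type (log2 fold change 0.55, unadjusted p = 0.0161 and adjusted p = 0.762 by edgeR). KO replicates 3 and 4 were above all other libraries, and KO replicates 1 and 2 lay inside the wild type range. Eci1 had the same pattern, at 69.5, 77.5, 109.7 and 111 CPM in KO, against 61.2, 69.3, 59.2 and 87.4 CPM in wild type. Eci1, Hadhb and Echs1, enzymes of mitochondrial oxidation, gave 0.41, 0.30 and 0.25. The difference between the lists was not tested.

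**Figure D5:**
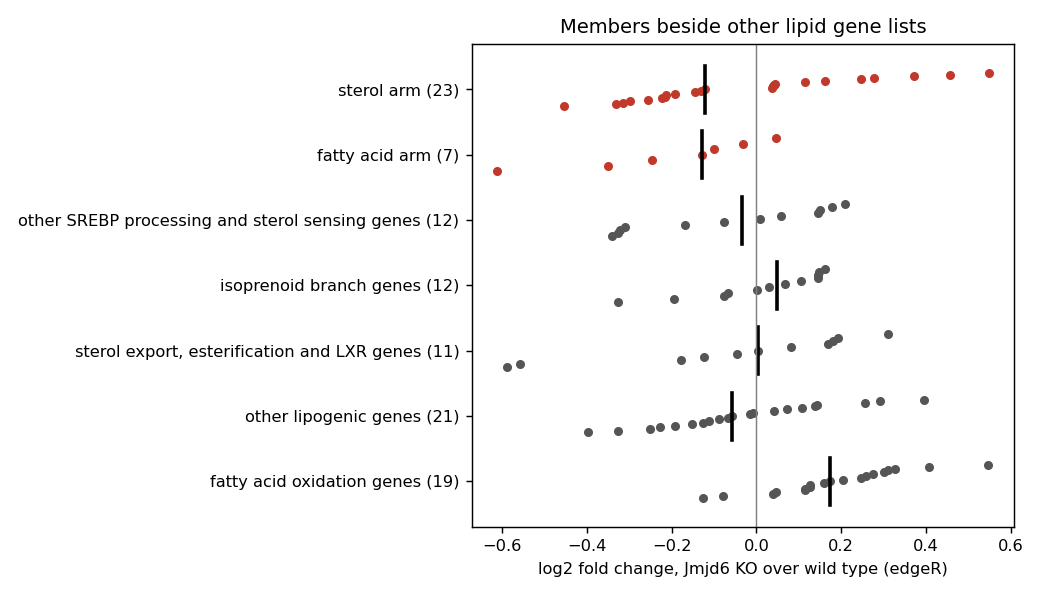
Log2 fold change of each tested gene, Jmjd6 KO over wild type, in the sterol and fatty acid arms (red) and in other lists of lipid genes (grey), with the number of genes in brackets; bars are medians. The medians are -0.12 and -0.13 in the arms and 0.17 in fatty acid oxidation.

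The marker lists had the following values. All 11 proliferation genes lay above 0, with a median log2 fold change of 0.22, and summed to between 2887 and 3325 CPM in KO and between 2395 and 3551 CPM in wild type. Of 8 erythroid markers in the table, 7 lay below 0 (median -1.20), and 4 were lower at an unadjusted p under 0.05 by edgeR. Tspan33 was lower in every KO library (log2 fold change -1.27, unadjusted p = 0.00305 and adjusted p = 0.501 by edgeR), and Car1 reached 339 CPM in wild type replicate 1. The erythroid sums, highest in wild type replicate 1, ran from 872 to 967 CPM in KO and from 872 to 1437 CPM in wild type, and Car2, at a log2 fold change of 0.00, made up most of the sum in every library. The 9 neutrophil and granule markers summed to between 1550.2 and 2379 CPM in KO and between 982 and 5226 CPM in wild type. Of the 8 tested, 4 lay above 0 and 4 below (median 0.01). Camp was higher in every KO library (log2 fold change 1.28, unadjusted p = 0.0116 and adjusted p = 0.741 by edgeR). Ngp gave 1.05 (unadjusted p = 0.0342 and adjusted p = 0.786 by edgeR). The 7 macrophage markers summed to between 92.3 and 233 CPM in KO and between 108 and 224 CPM in wild type, and the 7 B lineage markers to between 399.9 and 697 CPM in KO and between 379.5 and 488 CPM in wild type. All 6 tested B lineage markers lay above 0 (median 0.41). Cd79b was higher in every KO library (log2 fold change 0.53, adjusted p = 0.772 by edgeR). The 5 megakaryocyte markers summed to between 131 and 166 CPM in KO and between 98.9 and 222 CPM in wild type, and the 6 T lineage markers to between 16.3 and 24.6 CPM in KO and between 6.98 and 13.7 CPM in wild type. Cd4 stood at 15.7 ± 4.18 CPM in KO and 7.62 ± 3.09 CPM in wild type (log2 fold change 1.05, adjusted p = 0.583 by edgeR). Of 7 LSK markers, 5 lay below 0 and 2 above. Cd48, 1 of those above, was higher in every KO library (log2 fold change 0.86, adjusted p = 0.811 by edgeR). Over all tested genes, 2.08% were higher in every KO library. The part of cell composition in the values of the members was not tested.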

How the data were processed

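The authors deposited raw counts, whole numbers, for 26146 gene symbols in 8 libraries of polyA RNA from sorted LSK cells. HISAT2 and mm10 are named in the submitters' processing notes. Its version and the tool, annotation and strand option of the counting are not given in the sources used. Columns were matched to mice by genotype and replicate number.

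The main test was edgeR 4.0.16's quasi-likelihood test (R 4.3.3) of the 4 KO and 4 wild type libraries, with TMM scaling and filterByExpr (min.count 10, min.total.count 15), on the whole table, with Benjamini-Hochberg adjustment over all 13439 tested genes and calls under 0.05. The intervals of log2 fold changes use the fit's SE and so include the spread between mice. The common biological coefficient of variation was 27.8%. Log2 CPM used a prior count of 2. Lengths, overlaps and transcript GC came from GENCODE M21. The scripts were tested on simulated counts.

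The members, gene lists and the rule for naming genes were chosen with earlier results of these data known. All members are named; full values are given for members with an unadjusted p under 0.05 or without overlap and for 16 preset members, and up to 4 genes of other lists by smallest p, of which 1 is not reported here; Acat2 and Tm7sf2 were given in full after their values were seen. The p-values set the difference between groups against the spread between libraries, with 1 library per mouse. Alternatives were size factors from DESeq2, no scaling beyond library size, all genes unfiltered, a stricter filter (CPM above 1 in at least 4 libraries), the Wald test of DESeq2 1.42.0, limma 3.58.1 voom with sample weights, a replicate block, each library left out, the 6 libraries with Y-linked counts, and removal of a loess trend with length and expression.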

Additional observations from a re-analysis of the deposited data

Results flagged for a closer look

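In groups of 4 libraries, 7 of 66 sets of values had a library separated from the other 3 by most of the group's range. The critical value flags about 1 in 20 sets by chance where values follow a normal distribution. The sets share the same 8 libraries, and the share flagged over all tested genes was not computed. In 5 of the 7 flagged sets the separated library was Jmjd6 KO replicate 3. Scd2 had 146 CPM there and 219 to 222 CPM elsewhere in its group, and Fads1 at 52.9 CPM, against 88.7 to 90.2 CPM. Scap stood at 38.3 CPM, against 80.8 to 88.3 CPM, while Idi1 stood higher, at 21.7 CPM against 13.4 to 14.6 CPM. Scd1, with few counts, stood at 2.21 CPM in that library, against 0 to 0.232 CPM. The remaining 2 were Srebf1, where Jmjd6 KO replicate 4 had 46.2 CPM and the rest of its group 36.7 to 37.4 CPM, and Acaca, where wild type replicate 1 had 37.5 CPM and the rest of its group 24.3 to 26.4 CPM.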

How the results depend on the processing

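No member was called in either arm under the 16 alternatives with a test; the smallest adjusted p was 0.351, for Insig1 by limma voom. Of 30 members, 19 kept their direction under all 17 alternatives. The count of 8 genes called over the whole table was 71 by DESeq2, 31 by limma voom, 3 with the replicate block, 4 among the 6 libraries with Y-linked counts and 2 to 8 with single libraries left out. It was 8 without KO replicate 3, between 2 and 4 without any other library, and lowest without KO replicate 4 or wild type replicate 1, 2 or 3. The labels do not say that replicate numbers pair mice. Same-numbered libraries correlated at 0.03, -0.01, -0.18 and -0.19 in their deviations, which cannot show whether mice were paired. The sterol arm's median ran from -0.12 to 0.00 with single libraries left out, at 0.00 without KO replicate 1 or 2, and the fatty acid arm's from -0.29 to -0.09. Directions reversed close to 0. With library size only, Mvk, Fdft1, Sqle and Stard4 gave -0.01, -0.01, -0.01 and -0.02. By limma voom, Fdft1, Sqle, Fasn and Fads1 gave -0.17, -0.07, 0.07 and 0.13. With the replicate block Stard4 gave 0.00 from below. Among the 6 libraries with Y-linked counts, Fdft1, Sqle, Scap and Fads1 gave -0.04, 0.00, 0.01 and 0.14. With single libraries left out, Mvk ran from -0.17 to 0.24, Pmvk from -0.04 to 0.29, Idi1 from -0.33 to 0.01, Fdft1 from -0.06 to 0.18, Sqle from -0.06 to 0.13, Msmo1 from -0.30 to 0.00, Scap from -0.29 to 0.02, Stard4 from -0.09 to 0.22, Acaca from -0.08 to 0.23 and Fads1 from -0.09 to 0.12. The cause of these reversals was not tested. With 4 libraries per group the 95% intervals of the members reached a median of 0.47 to either side on the log2 scale, so differences below about that size could not be told from 0, and Scd1 had too few counts for a test.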
